A study of Homo sapiens with 8 samples.

Results

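TERT encodes the catalytic protein of telomerase, and the CpGs described here are those listed in hg19 chr5:1253282-1300000. This interval holds the gene, on the minus strand, and 4838 bases upstream of its start site at 1295162. Of 2975221 CpGs listed in at least 1 of the 8 libraries of the study, 613 lie in it, and 546 of these were listed in every library. They were divided by distance from the start site, and by no measured value, into a core promoter within 500 bases (42 CpGs), an upstream stretch beyond that (40 CpGs) and the gene body in 9 stretches of 5 kb or less (531 CpGs). Exons and introns are not named, since no hg19 annotation was used here.

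Telomerase adds repeats to chromosome ends by copying an RNA template, and TERT is the reverse transcriptase that does the copying. The gene is active in pluripotent stem cells and silent in most differentiated cells, and its start site lies in a CpG-rich stretch. Methylation of CpGs at a start site generally goes with silencing, whereas methylation within the body is common in transcribed genes. DNMT3A and DNMT3B place methyl groups on unmethylated DNA, and DNMT1 copies existing methylation after replication.

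Every library came from HUES64, an established human embryonic stem cell line, with DNMT3A and DNMT3B knocked out. The passages sampled were 6, 7, 8, 11, 13, 17, 27 and 28, with 1 library each, so the comparison is among passages of 1 genotype, and unedited cells were not analysed here. The number of clones, and whether the passages form 1 continuous culture, are not stated in the labels. A p-value here thus sets a trend only against the scatter among these libraries, and that scatter may be technical. The permutation tests treat the libraries as interchangeable, which passages of 1 culture need not be. Methylation was read by reduced representation bisulfite sequencing (RRBS), which cuts DNA at CCGG and sequences CpG-rich fragments. RNA was not measured, so neither the expression of TERT nor the labelled cell type could be checked. Within the interval the libraries had between 4779 reads (passage 11) and 10528 reads (passage 6), with a median of 7 to 16 reads per listed CpG. The level of a stretch is the methylated percentage of all reads over its CpGs, and lists of 8 levels below run from passage 6 to passage 28 in the order given above.

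The promoter sequence is shown because it holds the CpG near the start site that had methylated reads in every library. It consists of the 250 bases before the RefSeq start, from the RefSeq promoter of build GRCh38.p14, on the minus strand. In the files these bases lie at chr5:1295184-1295433 of hg19. They were placed there by the spacing of their CGs alone, with no conversion between builds. Only placements in which no listed CpG fell on other bases were considered. In the best of these, 19 of 36 CGs in the 300 bases of the RefSeq entry fell on listed CpGs, while the next best met 5. The RefSeq start lies 21 bases upstream of the start site from which distances are counted here. Capitals mark the 17 CpGs that the files list, of 28 in the sequence:
TERT promoter: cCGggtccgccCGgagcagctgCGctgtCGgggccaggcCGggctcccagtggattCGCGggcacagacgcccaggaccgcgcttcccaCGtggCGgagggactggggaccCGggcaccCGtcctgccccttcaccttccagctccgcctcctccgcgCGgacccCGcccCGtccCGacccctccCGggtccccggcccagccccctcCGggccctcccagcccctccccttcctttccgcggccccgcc

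With 28 CGs in 250 bases the TERT promoter is CpG-rich, and 15.9% of 35116 RefSeq promoters hold as many. Searched on both strands of the 250 bases, the GC box GGGCGG, a motif bound by SP1, had 2 matches, both on the opposite strand, and 42.6% of all promoters hold it. The E-box CACGTG, a motif bound by MYC and related factors, had 1 match, and 6.34% of promoters hold it. The CpG of this E-box had 0 methylated of 107 reads over the 8 libraries, which allows a level of up to 2.80%. The TATA box TATAAA, held by 10.7% of promoters, and the CCAAT box CCAAT, held by 32.0%, had no match.

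The core promoter was nearly free of methylation in every library. In passage order it had 4 of 940 reads methylated (0.426%), 2 of 517 (0.387%), 3 of 346 (0.867%), 6 of 338 (1.78%), 3 of 474 (0.633%), 5 of 439 (1.14%), 3 of 532 (0.564%) and 5 of 559 (0.894%). Early and late libraries overlap. The slope on passage was 0.00343 ± 0.0214 percentage points per passage (SE, n = 8), which did not pass the two-sided exact permutation test of Pearson's r (r = 0.0653, p = 0.889) or of Spearman's rho (rho = 0.476, p = 0.243). Summed over libraries, 31 of 4145 reads were methylated, a level of 0.748% with a 95% Wilson interval of 0.527 to 1.06% for counting error.

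Of those 31 methylated reads, 26 fell on 1 CpG. It lies at chr5:1295224, 62 bases upstream of the start site, and is the last capital pair of the printed sequence; it was singled out after its values were seen. In passage order it had 4 of 23, 2 of 14, 1 of 11, 6 of 19, 3 of 19, 3 of 19, 3 of 16 and 4 of 22 reads methylated. Every library thus had methylated reads there, at a mean of 17.6% ± 6.40 (SD, n = 8), and both late libraries lie within the range of the earlier ones. The other 41 CpGs of the core promoter had 5 methylated of 4002 reads (0.125%, Wilson interval 0.0534 to 0.292%), and 39 of the 42 had none in any library.

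This CpG lies in a CCGG, the sequence that the RRBS enzyme MspI cuts. Of the 17 listed CpGs of the printed sequence, the 6 in a CCGG had 29 methylated of 624 reads and the 11 elsewhere had 0 of 832. This split rests on the CpG that prompted it, which held 26 of the 29. The CpG at chr5:1295321 had 3 methylated of 189 reads, and the others of the 6 had none. The CpG 23 bases farther upstream, also in a CCGG, had 0 methylated of 74 reads, and the nearest one downstream, 85 bases away, had 0 of 86. The part of the cut site in the methylated reads was not tested.

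**Figure D1:**
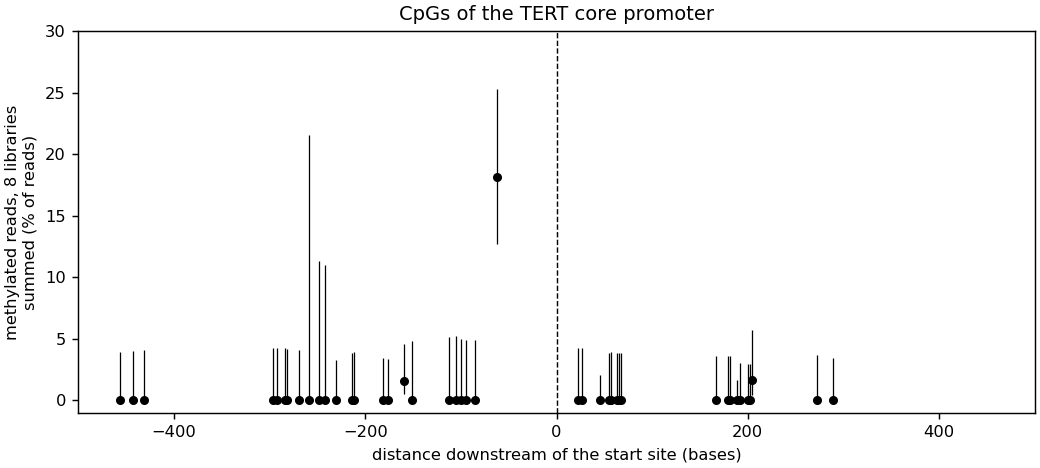
Methylated share of reads summed over the 8 libraries (y axis, percent) at each of the 42 CpGs within 500 bases of the TERT start site, by distance from it (x axis, bases, negative upstream), with 95% Wilson intervals as bars. The CpG 62 bases upstream stands at 18.2% and the others lie at or near 0, with wide bars where reads are few.

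A list of 12 other telomerase and telomere genes gave little to set beside TERT. Only the promoters of TERF2IP and ACD, which encode subunits of the shelterin complex that covers telomeres, were placed and kept. That of TERF2IP only just met the criteria, with 10 listed CpGs against 5 at the next best placement. That of ACD met 15 against 5. That of DKC1 met 15 listed CpGs, and 5 at the next best placement, but was left out because it lies on the X chromosome. TERC, TERF1 and TERF2 had no sequence or too few CGs, and the remaining promoters met too few listed CpGs. The levels that follow are those of TERF2IP and ACD. Both had 0 methylated reads in every library, of 109 to 300 reads for TERF2IP and 136 to 331 for ACD. Over its own 300 bases TERT had between 1.10 and 3.57%, with methylated reads in every library. Of these reads 26 fell on the CpG 62 bases upstream of the start site, which was singled out after its values were seen. No other CpG of the 300 bases had methylated reads in every library.

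Methylation was found on either side of the core promoter, and close to it the late libraries were almost without it. It did not begin at the edges of the core promoter. Of CpGs with 5 or more reads in each library, the nearest downstream, at 715, 722 and 729 bases, had 4.17, 16.7 and 0% over passages 6 to 8. The narrower windows here were chosen after their values were seen and carry no test. From 0.5 to 1 kb downstream, 21 CpGs had levels of 59.6, 63.5, 51.8, 51.9, 47.2, 30.2, 2.63 and 1.82%, so both late libraries lie far below the other 6. From 1 to 2 kb downstream, 10 CpGs averaged 57.7% ± 6.65 (SD, n = 3) over the 3 earliest passages and 4.74% over the last 2. Between 2 and 3 kb the libraries had only 3 to 12 reads, too few for a level.

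Upstream there were 3 zones. From 0.5 to 1 kb, 21 CpGs began low, at 4.94% ± 2.95 (SD, n = 3), and ended at 0.433%, with 0 of 303 reads methylated at passage 28, which allows up to 0.990%. The 4 CpGs from 1 to 2 kb had 56.9% ± 7.59 (SD, n = 3) early and 4.87% late, from 39 to 91 reads per library. The 15 CpGs beyond 2 kb had 83.6% ± 2.90 (SD, n = 3) early and 72.1% late, so they retained 86.2% of their early level, against 8.55 and 8.77% in the zones nearer to the start.

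The upstream stretch as a whole mixes these zones, with levels of 36.4, 44.9, 31.4, 38.1, 32.7, 29.8, 23.3 and 24.8%. Both late libraries lie below the other 6. Per passage the level changed by -0.687 ± 0.178 points (SE, n = 8; r = -0.844 with exact permutation p = 0.00804, rho = -0.810 with exact permutation p = 0.0218). Among the 6 libraries up to passage 17 the trend did not pass (r = -0.599, exact permutation p = 0.215). Libraries also differed in how much of the upstream reads came from the highly methylated zone beyond 2 kb, from 25% at passage 8 to 43.8% at passage 7. With every CpG weighted the same, the slope was -0.697 (exact permutation p = 0.0189, n = 8).

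**Figure D2:**
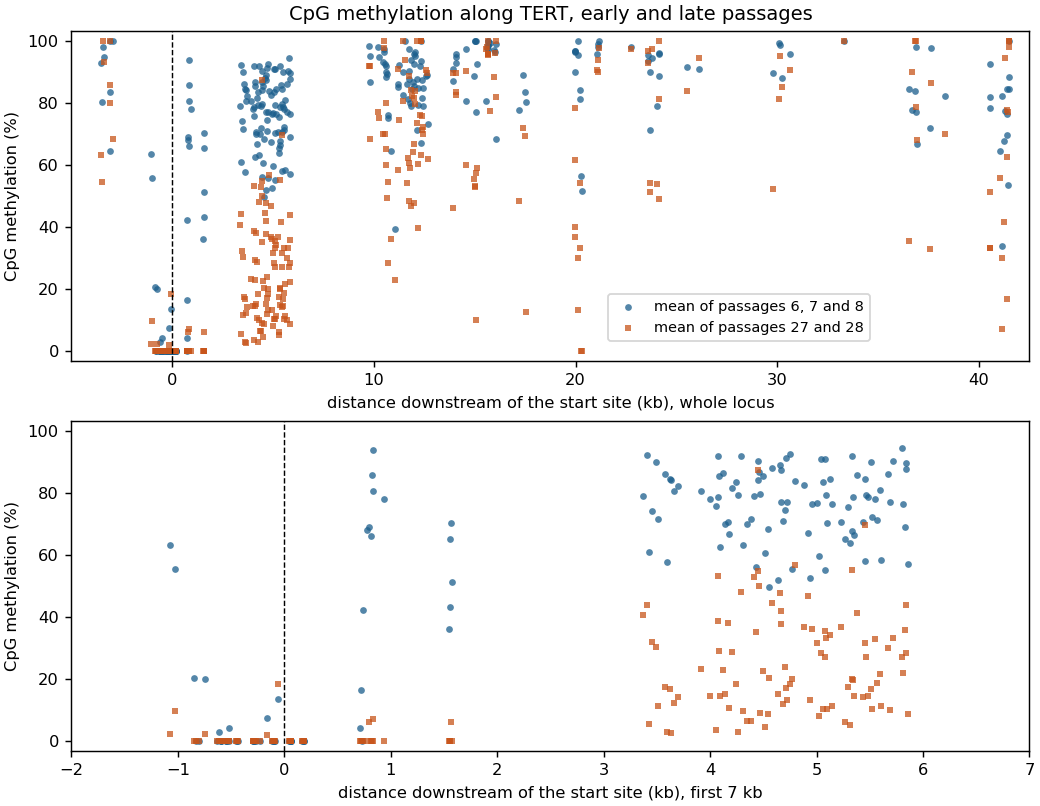
Methylation of the 299 CpGs of the TERT interval that each library covered by 5 or more reads (y axis, percent), as the mean of passages 6, 7 and 8 (circles) and of passages 27 and 28 (squares), by distance downstream of the start site (x axis, kb; dashed line, start site), for the whole interval above and the stretch near the start below. Within 500 bases of the start site the CpG 62 bases upstream stands at 13.6% early and 18.5% late, another has 7.41 and 2.08%, and the rest lie at 0, while in the first 5 kb 43 of 72 body CpGs end under 20%.

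The gene body lost 32.7 percentage points. Its levels were 82.1, 82.7, 80.7, 78.2, 77.2, 71.1, 50.5 and 47.7%, so from passage 8 on each library lies below the one before it. The mean was 81.8% ± 1.04 (SD, n = 3) over passages 6 to 8 and 49.1% over the last 2. Per passage the body changed by -1.61 ± 0.116 points (SE, n = 8; r = -0.985 with exact permutation p = 4.96e-05, rho = -0.976 with exact permutation p = 0.000397). It also passed among the 6 libraries up to passage 17 (r = -0.980, exact permutation p = 0.00278).

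In percentage points the body fell faster than the upstream stretch, with slopes that differed by -0.918 ± 0.211 (SE, n = 8; r = -0.872, exact permutation p = 0.0120). As shares of their early levels of 81.8 and 37.5%, the body retained 60% and the upstream stretch 64.1%, a difference that was not tested. By rho the difference in points did not pass (rho = -0.643, exact permutation p = 0.0962). It rests on the late libraries: the exact permutation p was 0.0512 without passage 27 and 0.0526 without passage 28 (n = 7), and 0.701 among the 6 libraries up to passage 17.

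The first 10 kb of the body carried the deepest loss. Between 0.5 and 5 kb, 152 CpGs had levels of 73.5, 73.2, 69.3, 67.9, 63.8, 53.2, 26.1 and 22.5%, each below the one before. They retained 33.8% of their early level (slope -2.36 ± 0.128, SE, n = 8; r = -0.991, exact permutation p = 2.48e-05, the smallest that 40320 orders of 8 libraries allow). Between 5 and 10 kb, 79 CpGs had levels of 80.6, 79.2, 76.7, 72.2, 70.0, 63.9, 33.4 and 31.8%. This order is unbroken too, and 41.3% of the early level was retained (slope -2.25 ± 0.137, SE, n = 8; r = -0.989, exact permutation p = 2.48e-05). Both stretches also passed among the libraries up to passage 17 (exact permutation p = 0.00139, n = 6, the smallest that 6 libraries allow).

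Farther into the gene more methylation was retained. From 10 to 15 kb, 117 CpGs had levels of 85.7, 88.1, 85.6, 86.2, 84.0, 81.0, 70.0 and 64.9% (slope -0.945 ± 0.108, SE, n = 8; exact permutation p = 0.000397). From 15 to 20 kb, 53 CpGs had levels of 91.4, 91.2, 92.6, 87.6, 92.1, 92.4, 68.0 and 66.4%. In this stretch the fall lies wholly between passages 17 and 27. Its r of -0.900 passed (exact permutation p = 0.0175, n = 8), its rho of -0.452 did not (exact permutation p = 0.267), and up to passage 17 its slope was 0.0432. Without passage 27 or without passage 28 the trend did not pass by r either (exact permutation p = 0.0716 in both cases, n = 7). From 20 to 25 kb, 44 CpGs had 88.3% ± 4.27 (SD, n = 3) early and 68.5% late (exact permutation p = 0.00608 for r and 0.0962 for rho, n = 8), and up to passage 17 the trend did not pass (exact permutation p = 0.390, n = 6).

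The far end of the gene had fewer CpGs and fewer reads. From 25 to 30 kb, 18 CpGs with 82 to 236 reads per library had 90.5% ± 5.82 (SD, n = 3) early and 55.7% late (slope -1.66 ± 0.282, SE, n = 8; exact permutation p = 0.00444). Only 3 of them had 5 reads in every library, and on those the slope was -0.634 and did not pass (exact permutation p = 0.0681, n = 8). The stretch from 30 to 35 kb, with 19 CpGs, retained the most, with levels of 92.0, 99.1, 96.9, 92.4, 98.3, 95.8, 79.0 and 88.8%. Its trend (exact permutation p = 0.0347, n = 8) did not pass without passage 7, 8, 27 or 28, with exact permutation p of 0.0825, 0.0702, 0.189 and 0.0829.

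From 35 to 40 kb, 20 CpGs had levels of 81.7, 86.2, 82.3, 78.1, 86.8, 78.9, 77.5 and 63.7% (slope -0.627 ± 0.222, SE, n = 8; exact permutation p = 0.0164). Passage 28 lies apart here, and without it the slope was -0.286 and did not pass (exact permutation p = 0.181, n = 7). On CpGs with 5 reads in every library neither of the stretches between 30 and 40 kb passed (exact permutation p = 0.0687 and 0.0937, n = 8). The last stretch, from 40 kb to the gene's end, had 75.6% ± 4.46 (SD, n = 3) early and 56.5% late over 29 CpGs (slope -0.956 ± 0.115, SE, n = 8; exact permutation p = 0.00112). This last trend did not pass on CpGs with 10 reads throughout (exact permutation p = 0.0820, n = 8) or up to passage 17 (exact permutation p = 0.0667, n = 6).

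Across the 9 stretches of the body the retained share ran from 33.8 to 87.4% and correlated with distance from the start at r = 0.700 and rho = 0.617, a description of stretches that share their libraries. The permutation p-values are unadjusted. The levels of the 11 stretches and the whole body gave 12 trends, each tested by r and by rho. Further permutation tests were run on fewer libraries or CpGs, on the body minus the upstream stretch and, below, against other autosomal regions. Their p-values are unadjusted too, so far more than 12 tests were made.

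**Figure D3:**
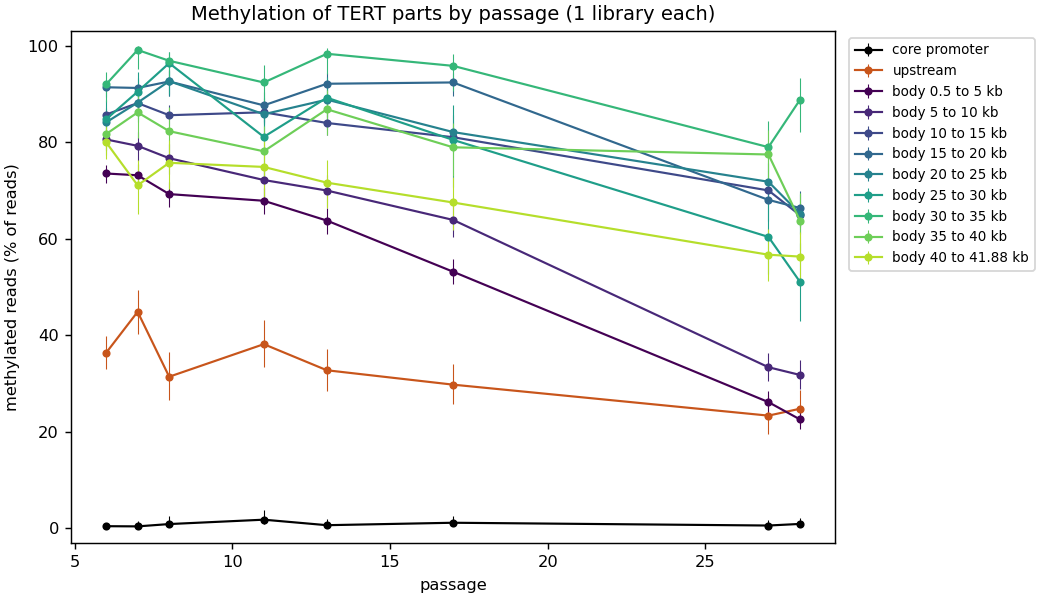
Methylated share of reads (y axis, percent) of the core promoter, the upstream stretch and each stretch of the TERT gene body by passage (x axis), 1 library per point, with 95% Wilson intervals for counting error. The core promoter reaches no more than 1.78%, and the stretches from 0.5 to 10 kb end between 22.5 and 33.4%, below every other stretch of the body.

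Tested in 1 kb windows, TERT was lower with passage along much of its length. Autosomal CpGs were grouped in tiles, laid so that 1 tile spans the TERT start site, and kept where at least 3 CpGs had 5 or more reads in all 8 libraries. Each tile was fitted by quasi-binomial regression on passage, with dispersion moderated by limma and Benjamini-Hochberg adjustment over all 78422 tested tiles. A call needed an adjusted p under 0.05 together with a fitted change of at least 10 points between passages 6 and 28. In the TERT interval 16 of 24 tested tiles were called lower, against 34% of all tested tiles. None was called higher, against 0.153% of all, none was higher at an unadjusted p under 0.05, and none was called higher by limma on logit levels. Up to passage 17, 1 TERT tile, chr5:1278662-1279661, was higher at an unadjusted p of 0.0227 in the quasi-binomial fit. It was not called (adjusted p = 0.132, same fit). The median fitted change was -19.1 points over the TERT tiles and -9.24 over all tiles.

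The share called depends on the starting level. Of the 14 TERT tiles that began at 80% or more, 8 were called lower, against 25.1% of all tiles of that class. Of the 6 that began between 60 and 80%, 5 were called, against 36.7%. Both of those that began between 40 and 60% were called, against 60.8%, and 1 of 2 under 20%, against 22.3%.

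The tiles next downstream of the start ended almost without methylation. The tile at chr5:1293662-1294661 (11 CpGs) had levels of 52.5, 63.5, 45, 51.6, 41.1, 16.5, 0.862 and 0.952%. Its fitted change was -58.4 points (adjusted p = 1.29e-06, quasi-binomial fit with limma). The tile at chr5:1292662-1293661 (5 CpGs) had 53.2% ± 7.83 (SD, n = 3) early and 2.50 and 0% in the late libraries. Of autosomal tiles that also began between 40 and 60%, 3.87 and 4.74% fell at least as far as these, and both were called in all 15 alternatives that tested them.

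Between 2.5 and 6.5 kb, 4 tiles began between 75.1 and 79.6% and ended between 23.1 and 29.8%. The smallest adjusted p of the interval was that of chr5:1290662-1291661 (32 CpGs), with levels of 78.4, 78.7, 76.7, 71.3, 67.5, 56.9, 23.4 and 22.8%. Its fitted change was -57.8 points (adjusted p = 2.5e-09, same fit). Of autosomal tiles that began between 60 and 80%, between 7.06 and 11.1% fell at least as far as these 4.

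Upstream, the tile at chr5:1295662-1296661 (16 CpGs) was called lower, from 12.5% ± 1.96 (SD, n = 3) to 1.23% (fitted change -11.1 points, adjusted p = 0.000443, same fit). Without passage 28 its fitted change was -9.56 points, short of a call. The tile at chr5:1297662-1298661 (7 CpGs) had a fitted change of -9.88 points (adjusted p = 0.0350, same fit) and was not called for its size. The tile on the start site was not called, at a fitted change of 0.182 points (adjusted p = 0.870, same fit).

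In the rest of the body 9 of 15 tiles were called lower, against 34% of all tested tiles. Most of these 15 began at 80% or more, a class in which 25.1% of all tiles were called. Not every call was stable. The tiles from 1256662 and 1264662 were called in 11 of the 15 alternatives that tested them. That from 1277662 was called in 11 of 14. Among these 15 tiles, neighbours differed. The deepest fall was at chr5:1274662-1275661 (10 CpGs), centred 20 kb from the start, with levels of 74.7, 86.1, 91.4, 85.0, 80.6, 53.3, 42.6 and 22.1% (fitted change -52.7 points, adjusted p = 3.91e-05, same fit). The tile beside it, chr5:1273662-1274661 (4 CpGs), had 98.3% ± 1.48 (SD, n = 3) early and 93.3% late, a fitted change of -3.94 points that did not pass (adjusted p = 0.472, same fit). The tile at chr5:1279662-1280661 (8 CpGs) had 91.6% at passage 17 and then 53.1 and 62.9%, whereas that next to it, chr5:1278662-1279661 (12 CpGs), had 99% and then 93.6 and 91.0%. Their fitted changes were -35.6 points (adjusted p = 3.02e-05) and -2.11 points (adjusted p = 0.521, same fit). The difference between neighbouring tiles was not tested.

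Set against tiles of like start, the TERT body fell faster. The 37468 autosomal tiles outside the interval that began at 80% or more went from a mean of 89.5 to 79.0%, whereas the TERT body, near the lower edge of that class, went from 81.8 to 49.1%. The difference changed by -1.10 ± 0.104 points with each passage (SE, n = 8; r = -0.974 with exact permutation p = 9.92e-05, rho = -0.952 with exact permutation p = 0.00114). Up to passage 17 it was -0.570 (exact permutation p = 0.00556, n = 6). Against the 18105 tiles within 5 points of the body's own start, which went from 82.1 to 68.1%, it was -0.928 (exact permutation p = 0.000174, n = 8).

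The first 10 kb stood farthest from their class together with the thinly read stretch from 25 to 30 kb. From 0.5 to 5 kb TERT began at 72.0% and the 19471 tiles that began between 60 and 80% at a mean of 72.1%, and they ended at 24.3 and 54.2% (difference in slope -1.49 ± 0.103, SE, n = 8; exact permutation p = 0.000298). From 5 to 10 kb the difference was -1.38 ± 0.103 (SE, n = 8; exact permutation p = 4.96e-05). Both passed up to passage 17, at -1.10 (exact permutation p = 0.0111, n = 6) and -0.836 (exact permutation p = 0.00139, n = 6). The 4 stretches between 10 and 30 kb passed by r, with exact permutation p between 0.0104 and 0.0341 (n = 8), but none of them by rho, where p lay between 0.0694 and 0.428, or up to passage 17.

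Beyond 30 kb no difference from tiles of like start was found. The 3 differences in slope were -0.0469 ± 0.204, -0.121 ± 0.206 and -0.0866 ± 0.118 points per passage (SE, n = 8), with exact permutation p of 0.840, 0.571 and 0.487. The core promoter differed from the 35694 tiles that began under 20% by 0.0665 ± 0.0269 (SE, n = 8), with an exact permutation p of 0.0550 for r and 0.0458 for rho. Those tiles went from 2.21 to 0.889%. Against the 30489 tiles within 5 points of its own start, which went from 0.517 to 0.296%, the difference was 0.0141 ± 0.0224 (SE, n = 8) and did not pass (exact permutation p = 0.557). The upstream stretch did not differ beyond its scatter from the 5799 tiles that began between 20 and 40% (0.191 ± 0.182, SE, n = 8; exact permutation p = 0.332), nor from the 3032 tiles within 5 points of its start (0.369 ± 0.184, SE, n = 8; exact permutation p = 0.0848). Its start is an average of zones that began at 4.94, 56.9 and 83.6%, none of them between 20 and 40%. The zones were not set against tiles of their own start, so this says nothing of any single zone.

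**Figure D4:**
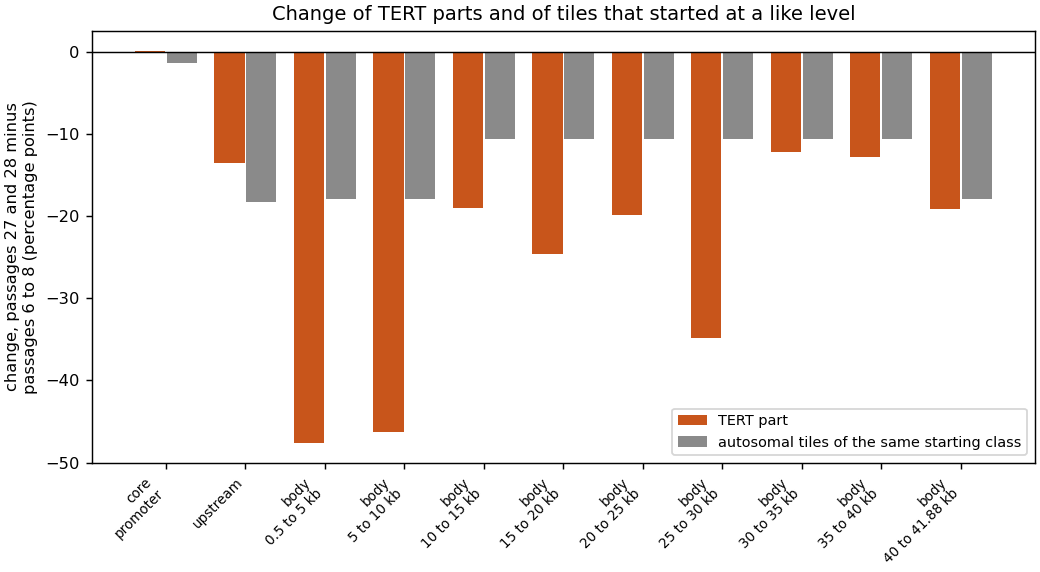
Change between the mean of the 3 earliest libraries and that of the last 2 (y axis, percentage points) for each TERT stretch and, in grey, for the mean of autosomal 1 kb tiles outside the interval that began in the same class of 20 points. The stretches from 0.5 to 5 and 5 to 10 kb changed by -47.6 and -46.3 points against -17.9 for their class; the bars carry no error, and the errors of the slopes are in the text.

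Single CpGs varied more than the stretches. Of 249 body CpGs covered by 5 or more reads in each library, 216 had a lower late mean. At 80% or more were 150 of them early, of which 58 were still there late and 15 had gone below 20%, 11 of these between 0.5 and 5 kb. In that stretch 1 of 28 CpGs that began at 80% or more was still there, and from 10 to 15 kb 22 of 48 were.

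Among the 61 CpGs covered by 10 or more reads in each library, the farthest fall was at chr5:1275053, in the tile centred 20 kb from the start, with levels of 93.6, 92.0, 100, 100, 93.5, 56.2, 12.0 and 14.3%. It stayed above 90% up to passage 13. The next 4 falls were at chr5:1290452, chr5:1290101, chr5:1289654 and chr5:1291543, between 3619 and 5508 bases from the start, with changes between -67.8 and -73.8 points. At the other end, chr5:1258342 went from 83.8% ± 6.40 (SD, n = 3) to 100% and chr5:1258504 from 77.7% ± 19.3 (SD, n = 3) to 89.9%, both between 35 and 40 kb. The others of the 5 with the smallest fall or a rise were the CpG 62 bases upstream of the start, chr5:1271585 and chr5:1282583, with changes of 4.88, 3.33 and 1.74 points. These CpGs were picked by their change, from as few as 10 reads in a library, and carry no test.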

How the data were processed

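Each library's deposited file lists CpG positions with methylated and total reads as text, and a deposited score that equals 1000 times the methylated share on every line. The build is hg19, per the submitters' processing notes. The aligner, methylation caller, coverage filter and any removal of duplicates are not stated in the labels. Duplicates would make intervals and limits, which cover counting error only, too narrow. The files list 2793772 to 2913127 CpGs with 19898423 to 44599588 reads.

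Reads were summed by stretch (Python 3.11.15, scipy 1.17.1). Trends are least squares slopes on passage, with two-sided exact permutation tests of Pearson's r and Spearman's rho. A count of 0 allows up to 3 counts. The tile fit (R 4.3.3, limma 3.58.1) held the dispersion at 1 or more and needed 10 reads of each state. Tested on simulated data, it missed some large falls and most moderate ones, so a tile that was not called may still have fallen. The recovery that this test had to reach was reset after its outcome was seen, with the fit unchanged. Tiles of like start are those whose mean over passages 6 to 8 lay in the same class of 20 points.

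The locus, its stretches, the lists and the tests were chosen with earlier results of these data known. The rule for naming took every stretch and tested tile, and of CpGs with 10 reads throughout the 5 with the largest and the 5 with the smallest fall. Placing promoters by CG spacing was added after the data were seen, and its criteria were changed once, to placements with no listed CpG off a CG, because the first form placed none. The telomere list was TERC, DKC1, NOP10, NHP2, GAR1, WRAP53, TERF1, TERF2, TERF2IP, TINF2, ACD and POT1, and all but 2 were not analysed here. Alternatives varied CpG sets, coverage limits, thinning, core width, passage scale, libraries and tile settings.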

Additional observations from a re-analysis of the deposited data

Results flagged for a closer look

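In the stretch from 35 to 40 kb downstream of the TERT start, passage 28 stood apart, at 63.75% against 77.5 to 86.8% in the other 7 libraries. Its gap to the nearest library, divided by the range of all 8, was above the 95% critical value of Dixon's test. It was the only such case among the 11 stretches checked, and chance sets off this test in about 1 of 20 groups. The levels also follow passage, and the part of that trend in the gap was not tested.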

How the results depend on the processing

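The slopes of the whole gene body and of its difference from tiles of like start kept their sign and passed under every alternative run. The core promoter slope of 0.00343 did not pass within 250 bases, but within 1000 bases, a window that takes in the methylated flanks, it was -0.620 (exact permutation p = 0.00228, n = 8). The upstream slope was -0.491 at 10 reads in every library, where 2 CpGs were left, and -0.792 up to passage 17, and neither passed. The body minus upstream slope was -0.208 up to passage 17 and between -1.06 and -0.758 with each library left out. TERT tiles called lower were 6 at 10 reads, where 10 were tested, against 48% of all tested tiles. Up to passage 17 they were 6 of 24, against 10.5% of all. With each library left out they were 13 to 17 of 24, against 25.6 to 34.9% of all. Up to passage 17 the slopes turned to 0.0432 from 15 to 20 kb and 0.0871 from 30 to 35 kb. Among tiles called in the main fit, the fitted changes turned to 2.57 points in the tile from 1264662 and 5.51 in that from 1277662. Tiles without a call changed sign there too, such as those from 1270662 (8.60 points), 1257662 (7.20), 1278662 (5.99) and 1280662 (3.99). Fewer libraries and CpGs enter these settings, and the cause was not tested further. The 2 stretches and 2 called tiles that reversed did not pass with the new sign. Beside them, 19 values of body stretches and 18 of single tiles kept their sign but lost their call, and 5 of single tiles gained one. Among the main results the core promoter slope within 1000 bases reversed and passed, and 7 values lost their call or, for tile counts, shrank. With 1 library per passage and 7 to 16 reads per listed CpG at the median, single CpGs and the stretches beyond 25 kb are the least certain. No paired analysis was possible because there is 1 library for each passage and the labels give 1 group without replicate numbers.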
